A study of Mus musculus with 4 samples.

Results

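MyoD works in pairs, and 9 genes that encode its partners or its inhibitors were examined for open chromatin in cultured myoblasts from WT and Tet2 KO mice. The genes were chosen by family: the E protein genes Tcf3, Tcf4 and Tcf12, the Id genes Id1, Id2, Id3 and Id4, and the Twist genes Twist1 and Twist2. Every ATAC-seq peak that touched the stretch from 50 kb upstream of the start of a gene to 50 kb past its end was taken (mouse genome build mm9, GENCODE M1 annotation). This gave 44 of the 25775 peaks listed for WT myoblasts and 10 of the 3836 peaks listed for Tet2 KO myoblasts. ATAC-seq uses a transposase that inserts sequencing adapters into accessible DNA, so that a peak marks a stretch of open chromatin. Satellite cells, the stem cells of skeletal muscle, were sorted from the hindlimb muscle of C57BL/6 mice and grown for 3 days, by which time they had become myoblasts positive for MyoD, and each library was made from 5000 cells. The Tet2 KO mice are a constitutive knockout without exon 3 of Tet2, an enzyme that oxidises methylated cytosine, and the labels give no other allele or agent for either group. Each genotype had 2 samples but 1 peak list, which could not be tied to a replicate, so all differences between the genotypes below are differences between 2 lists and no test between genotypes was possible.

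MyoD is a basic helix-loop-helix (bHLH) factor that starts the muscle programme. It binds the E box, a short DNA site with the letters CANNTG, as a dimer with an E protein, and the form CAGCTG is typical of its sites in muscle cells. Id proteins have the helix-loop-helix but no basic part, so they take up E proteins without binding DNA and keep MyoD from forming active dimers. Id genes are classical targets of bone morphogenetic protein (BMP) signals, which are carried to the genome by SMAD proteins. Twist proteins are bHLH factors of mesenchymal cells that compete for E proteins and restrain muscle differentiation.

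The lists themselves set limits on what can be read. In the WT list 9707 peak numbers were skipped and in the Tet2 KO list 4403, so neither holds every peak that was called, and a gap in a list is not proof of closed chromatin. Across the genome, the background stood at 0.649 fragments in the WT list and at 1.38 in the Tet2 KO list, 2.13 times as much. At Tet2 itself, from 10 kb upstream to its end, there were 3 WT peaks and 0 Tet2 KO peaks, but none lay in the deleted exon, so this does not check the labels. Of 8 myoblast markers, 3 had a promoter peak in WT and the same number in Tet2 KO (Myod1, Des and Chrna1 in both), and 7 had a WT peak within 50 kb, the exception being Myf5. Among all protein-coding genes, 30.3% had a WT and 7.92% a Tet2 KO promoter peak, and 74.3% had a WT peak within 50 kb. Counts on so few genes do not check the cell type. Of the markers of other cells, the promoter of the endothelial gene Pecam1 had a WT peak, and none of the other 3 endothelial markers, the 3 leukocyte markers found in the annotation (Spi1 was not found under this symbol) or the 4 fibro-adipogenic markers had a promoter peak in either list. Peaks within 50 kb did not set myoblast markers apart, as all 4 endothelial and all 3 leukocyte markers had one in WT (and 3 and 2 of them in Tet2 KO), while 1 of the 4 fibro-adipogenic markers had one in WT and 0 in Tet2 KO.

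Sequences of 200 bp are shown for the peaks on which the results turn, read 5′ to 3′ from the plus strand of mm9. The first set holds 4 of the 7 windows centred on the WT summits of peaks outside promoters that were listed in both genotypes, since these are the places where a peak was found with and without Tet2. Capitals mark every E box (CANNTG) and every AP-1 motif (TGANTCA, bound by FOS and JUN proteins), and where both overlap the capitals run on.
Tcf12 past the end, chr9:71674157-71674356: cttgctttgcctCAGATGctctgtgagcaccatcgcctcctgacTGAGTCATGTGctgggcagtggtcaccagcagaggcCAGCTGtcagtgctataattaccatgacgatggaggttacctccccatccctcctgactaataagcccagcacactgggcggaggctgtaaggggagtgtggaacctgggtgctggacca
Tcf12 intron, chr9:71722605-71722804: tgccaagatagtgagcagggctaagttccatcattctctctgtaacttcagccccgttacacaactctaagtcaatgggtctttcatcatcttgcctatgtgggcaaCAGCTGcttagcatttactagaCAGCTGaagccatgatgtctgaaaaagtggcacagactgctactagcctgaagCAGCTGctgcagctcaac
Id3 upstream, chr4:135676042-135676241: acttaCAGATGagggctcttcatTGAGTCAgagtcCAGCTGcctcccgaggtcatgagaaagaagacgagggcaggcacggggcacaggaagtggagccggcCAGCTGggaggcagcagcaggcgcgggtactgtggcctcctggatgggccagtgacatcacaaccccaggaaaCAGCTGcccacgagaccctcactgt
Id1 downstream, chr2:152567189-152567388: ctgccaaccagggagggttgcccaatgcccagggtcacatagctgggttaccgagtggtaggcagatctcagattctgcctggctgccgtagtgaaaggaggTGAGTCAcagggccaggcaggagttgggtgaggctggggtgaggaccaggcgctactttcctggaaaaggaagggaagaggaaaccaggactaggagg
The intron window of Tcf12 held 3 copies of CAGCTG. The upstream window of Id3 also held 3, with an AP-1 motif beside the first of them. Of the 3 windows of this kind that are not shown, the Id1 window 6604 bp upstream held neither an E box nor an AP-1 motif, and of the Tcf4 pair one held 5 E boxes, of which 1 was CAGCTG, and the other 1 E box of another form and 1 AP-1 motif.

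The second set holds the 2 windows with a match to a form of the BMP response element, GGCGCC followed after 5 bases by GTCT. This is a composite site of SMAD1 or SMAD5 with SMAD4. Both windows were WT peaks of Id3 without a Tet2 KO peak. Of all WT peaks outside promoters, only 11% had a Tet2 KO peak. Capitals mark the element.
Id3 upstream, chr4:135696330-135696529: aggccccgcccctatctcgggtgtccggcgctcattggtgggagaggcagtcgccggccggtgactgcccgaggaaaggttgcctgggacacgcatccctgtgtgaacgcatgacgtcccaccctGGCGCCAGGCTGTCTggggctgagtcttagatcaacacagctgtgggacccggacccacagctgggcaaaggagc
Id3 downstream, chr4:135703873-135704072: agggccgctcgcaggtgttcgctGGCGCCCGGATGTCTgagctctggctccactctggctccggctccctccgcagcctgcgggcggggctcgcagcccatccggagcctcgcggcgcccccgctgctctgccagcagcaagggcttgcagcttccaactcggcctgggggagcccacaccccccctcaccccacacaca

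The third set holds the pair of windows at different genes with the longest stretch in common, from Id1 and Id4, among the members other than Tcf4, whose windows were not compared, again WT peaks without a Tet2 KO peak. Capitals mark the 3 stretches that both share in the same order.
Id1 upstream, chr2:152560850-152561049: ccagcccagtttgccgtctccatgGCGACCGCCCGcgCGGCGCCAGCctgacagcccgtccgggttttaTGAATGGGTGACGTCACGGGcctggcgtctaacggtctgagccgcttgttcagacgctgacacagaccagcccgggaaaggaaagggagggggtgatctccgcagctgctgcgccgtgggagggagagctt
Id4 upstream, chr13:48323193-48323392: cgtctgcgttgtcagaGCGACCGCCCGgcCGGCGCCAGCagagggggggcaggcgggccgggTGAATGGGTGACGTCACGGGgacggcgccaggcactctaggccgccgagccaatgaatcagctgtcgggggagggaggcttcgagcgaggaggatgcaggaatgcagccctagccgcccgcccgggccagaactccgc

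The last window is the 200 bp upstream of the Id2 start, read on the strand of the gene (minus), since Id2 and Id3 were the only members with a promoter peak in both lists. Capitals mark the CCAAT box in either direction (CCAAT or ATTGG), of which there were 3. The sequence also held 1 CAGCTG, which is not marked.
Id2 promoter, chr12:25780958-25781157: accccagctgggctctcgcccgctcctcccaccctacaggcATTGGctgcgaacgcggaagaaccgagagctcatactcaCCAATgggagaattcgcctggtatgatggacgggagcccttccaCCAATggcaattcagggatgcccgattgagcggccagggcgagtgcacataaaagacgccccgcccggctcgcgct

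At least 1 WT peak was listed at 8 of the 9 genes and at least 1 Tet2 KO peak at 6. Over all 22350 protein-coding genes, 74.3% had a WT peak and 31.4% a Tet2 KO peak within the same distance. Id3 had 10 WT and 2 Tet2 KO peaks, Tcf4 and Tcf12 each 8 and 2, and Id1 7 and 2. Fewer were listed at Tcf3 (4 and 1), Id2 (3 and 1), Id4 (2 and 0), Twist2 (2 and 0) and Twist1 (0 and 0). The genes differ in length from 1.16 kb (Id1) to 344 kb (Tcf4), so the counts are better read per 100 kb of window. On this scale Id3 had 9.78 WT peaks and Id1 6.92, which placed them above 99.7% and 97.2% of protein-coding genes, whose median was 1.60. These windows also hold other genes, and some of the Id3 peaks lay at its neighbour E2f2. With 10 kb or 100 kb in place of 50 kb on either side, Id3 had 3 or 13 WT peaks and Id1 5 or 15. The other members lay between 0 (Twist1) and 3.22 (Tcf3), and Id2 had 2.93, Tcf12 2.18, Id4 1.95, Tcf4 1.80 and Twist2 1.36. With 1 list there is no spread over samples, and counts this small do not order neighbours such as Tcf12, Id4 and Tcf4.

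**Figure D1:**
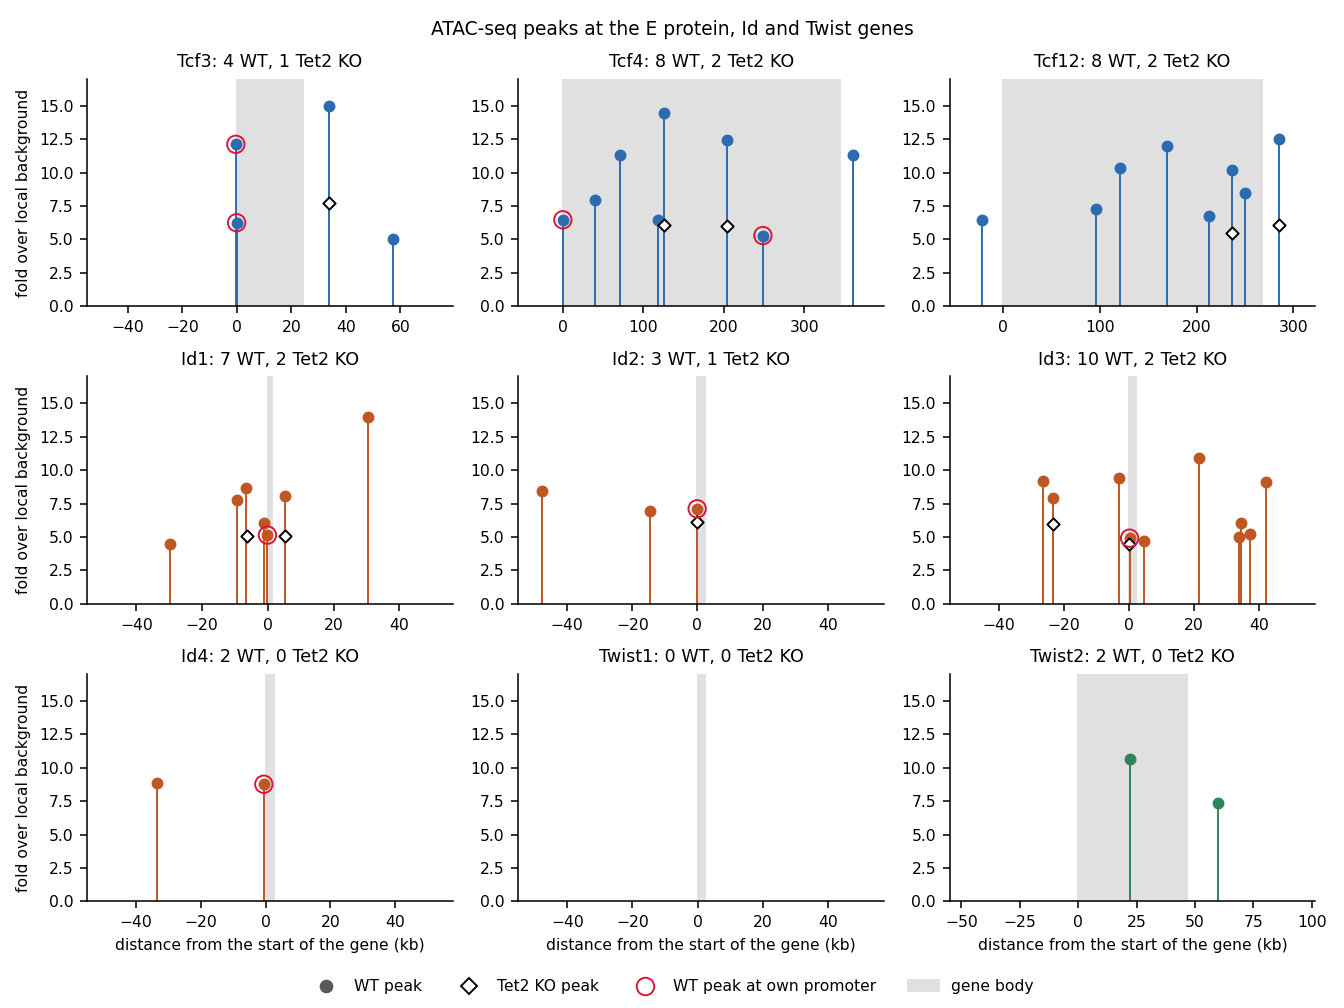
Peaks of the WT (filled circles on stems) and Tet2 KO (open diamonds) lists at the 9 genes, with the distance of the summit from the start of the gene in kb along the direction of transcription on the x axis and the fold enrichment over the local background on the y axis; each panel spans the gene (grey) and about 50 kb on either side. Each of the 10 Tet2 KO peaks sits at a WT peak and below it, and Twist1 has no peak.

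Tcf3, which encodes the E proteins E12 and E47, lies on the minus strand at chr10:79872259-79896392. The WT list had a pair of peaks at its own promoter, at a fold enrichment over the local background of 12.1 at 395 bp upstream and of 6.25 at 100 bp upstream, with 30 and 15 fragments at the summit. Neither had a Tet2 KO peak. The only Tet2 KO peak of the window lay at the promoter of the neighbouring gene Mbd3, a subunit of the NuRD complex, 9.81 kb past the end of Tcf3. There the fold enrichment was 14.9 in WT and 7.73 in Tet2 KO, and the WT value was higher than in 98.6% of all WT peaks. The 4th WT peak, between genes and 33.1 kb past the end of Tcf3, was among the weakest of all members at a fold enrichment of 5.0 and 8 fragments.

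Tcf4 encodes the E protein E2-2 and is the longest of the genes. Its start had a WT peak at 6.47-fold, 215 bp past the first base, and an internal promoter 249 kb further on had a WT peak at 5.29-fold. Both were absent from the Tet2 KO list. Its 5 intron peaks ranged from 6.42-fold to 14.4-fold in WT. The strongest of them, 125 kb past the start, stood at 14.4-fold with 41 fragments, the most of any member peak, and at 6.06-fold with 14 fragments in Tet2 KO. Another, 204 kb past the start, stood at 12.5-fold in WT and 6.01-fold in Tet2 KO. These were the only Tet2 KO peaks of Tcf4, and both lay inside the gene and away from its annotated starts. Past the end, a WT peak at 11.3-fold had no Tet2 KO peak.

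Tcf12 encodes the E protein HEB and lies on the minus strand at chr9:71692059-71959626. No peak of either list lay at its promoter, although 8 WT peaks lay in its window, 6 of them in its introns. The strongest was 17.8 kb past the end, with 38 fragments and 12.5-fold in WT against 16 fragments and 6.09-fold in Tet2 KO. The other peak found in both lists lay in an intron 237 kb past the start, at 10.2-fold in WT and 5.45-fold in Tet2 KO. An intron peak 169 kb past the start reached 12-fold in WT, above 90.6% of all WT peaks, and had no Tet2 KO peak. A WT peak 21.3 kb upstream differed from the rest in composition, with 27 CpG sites in its 200 bp and a GC content of 74.5%, and it was not listed for Tet2 KO.

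Id1 lies on the plus strand at chr2:152561987-152563146 and was surrounded by 7 WT peaks, 5 of them within 10 kb of its start. The promoter peak, 132 bp upstream, was weak in WT at 5.15-fold and had no Tet2 KO peak. The 2 Tet2 KO peaks flanked the gene, 6.48 kb upstream at 5.10-fold and 5.35 kb past the start at 5.09-fold. The WT peaks at the same places stood at 8.65-fold and 8.04-fold. The WT peak with the highest fold enrichment, 14.0, lay 30.3 kb past the start, between genes, with 36 fragments at its summit, and it had no counterpart in the Tet2 KO list. One more WT peak, 1037 bp upstream and just outside the promoter, had 26 fragments and 6.04-fold and no Tet2 KO peak.

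Id2 lies on the minus strand at chr12:25778666-25780957. Its promoter peak was listed in both genotypes, at 7.11-fold and 29 fragments in WT and at 6.12-fold and 21 fragments in Tet2 KO. The ratio of the fold enrichments was 1.16, next to the lowest of the 10 pairs. The local background here was 4.96 times the genome-wide one in WT and 1.88 times in Tet2 KO. With the summit fragments divided by the genome-wide background of each list instead, the ratio was 2.94. The other WT peaks lay 14.4 kb and 47.6 kb upstream, at 6.98-fold and 8.42-fold, and were absent from the Tet2 KO list.

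Id3 lies on the plus strand at chr4:135699412-135701670. The peak at its start had 4.91-fold in WT and 4.49-fold in Tet2 KO, a ratio of 1.10 and the lowest of the 10 pairs, with 22 and 15 fragments. The local background there was 5.67 times the genome-wide one in WT and 1.85 times in Tet2 KO. Over the genome-wide background of each list, the ratio at the summit was 3.13. This peak counts as a promoter peak only by a transcript start that is not annotated as protein-coding, in both lists. Upstream, a peak 23.3 kb from the start was found in both lists, at 7.92-fold in WT and 6.01-fold in Tet2 KO. The peak with the highest −log10 q outside the promoter (21.2) lay 2982 bp upstream, at 9.44-fold with 33 fragments in WT, and was not in the Tet2 KO list. Further WT peaks lay 26.3 kb upstream (9.15-fold) and 21.7 kb past the start (10.9-fold), both without a Tet2 KO peak. The remaining WT peaks were one 4561 bp past the start, at 4.71-fold, and 4 at the neighbouring cell cycle gene E2f2, of which 3 lay in its introns and 1 at its promoter (5.25-fold). None of these 5 was listed for Tet2 KO.

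Id4 lies on the plus strand at chr13:48356796-48359405 and had 2 WT peaks and no Tet2 KO peak. One lay 538 bp upstream, at its promoter, with 8.76-fold and 16 fragments. The other lay 33.5 kb upstream in an intron of the long non-coding RNA gene A330033J07Rik, with 8.89-fold and 15 fragments.

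Twist1, at chr12:34642536-34644682 on the plus strand, had no peak in either list within 50 kb, as had 25.7% of all protein-coding genes in the WT list. At most 1 WT and 4 Tet2 KO peak numbers were skipped in its window, so that filtered peaks cannot be told apart from closed chromatin here. Twist2, at chr1:93698038-93744605 on the plus strand, had no promoter peak. It had a WT peak in its intron 22.2 kb past the start at 10.7-fold and another 13.2 kb past its end at 7.34-fold. Here the Tet2 KO list skipped 0 numbers, so that no filtered Tet2 KO peak could lie in the window.

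A peak at the gene's own promoter was listed for 6 of the 9 genes in WT (Tcf3, Tcf4 and all 4 Id genes) and for 2 in Tet2 KO (Id2 and Id3). A promoter was counted from 1000 bp upstream to 100 bp downstream of any transcript start, and over all protein-coding genes 30.3% had a WT and 7.92% a Tet2 KO promoter peak. Most member peaks lay elsewhere. Of the 44 WT peaks, 33 lay in introns or between genes, which was 75% (95% Wilson interval 60.6% to 85.4%) against 69.3% of all WT peaks. Another 8 lay at the members' own promoters, 2 at those of Mbd3 and E2f2 and 1 in a UTR of H13, upstream of Id1.

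Of the 44 WT peaks, 10 overlapped a Tet2 KO peak by at least 1 bp, or 22.7% (95% Wilson interval 12.8% to 37.0%). Over all WT peaks the share was 14.1%, which is inside that interval. At promoters 3 of 10 member peaks did so against 22.5% of all promoter peaks, and in introns and between genes 7 of 33 against 11%. The E protein genes gave 5 of 20, the Id genes 5 of 22 and the Twist genes 0 of 2, and counts of this size do not rank the families. In the other direction each of the 10 Tet2 KO peaks overlapped a WT peak, with its summit inside it, and 9 lay wholly within the WT peak. No Tet2 KO peak of these genes stood apart from a WT peak. Across the genome 3633 WT peaks overlapped one of the 3836 Tet2 KO peaks, so such overlap was not particular to these genes.

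The 10 pairs had a higher fold enrichment in WT in every case, as had 98.1% of all 3633 pairs. The median ratio was 1.78, from 1.10 at the Id3 promoter to 2.38 at the Tcf4 intron 125 kb past the start, against 1.88 over all pairs. When the fragments at the summit were instead divided by the genome-wide background of each list, the median ratio was 4.07, from 2.72 at the upstream peak of Id3 to 6.25 at that same Tcf4 intron, against 3.84 over all pairs. In both measures the median of the members lay near that of all pairs. In the ratio of fold enrichments, single members stood above 3.00% to 83.7% of all pairs.

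**Figure D2:**
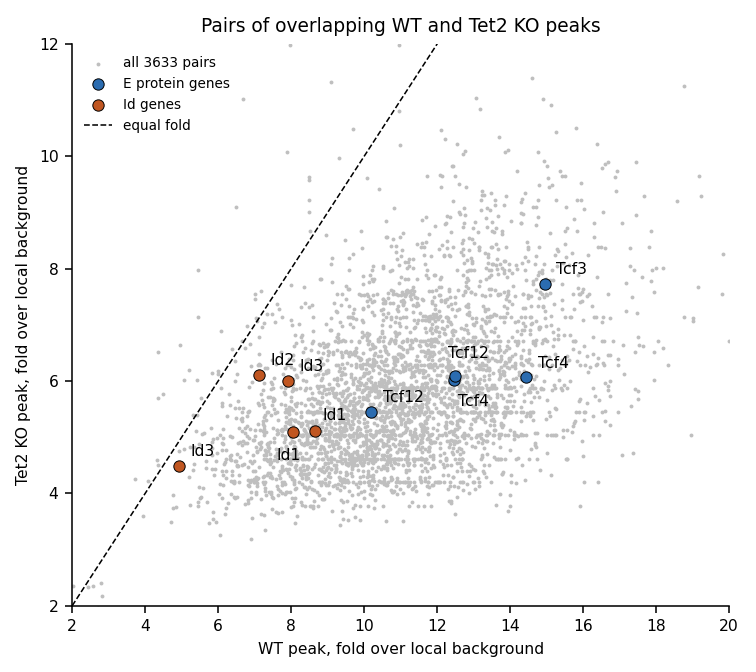
Fold enrichment over the local background in the WT list (x axis) and the Tet2 KO list (y axis) for the 10 pairs of overlapping peaks at the E protein genes (blue) and Id genes (orange), over all 3633 pairs (grey, 44 of which fall outside the axes). All 10 lie below the line of equal values (dashed), and on this local scale the Id2 and Id3 promoter pairs lie nearest to it.

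The WT peaks with a Tet2 KO peak were among the stronger ones. They had a median of 32.5 fragments at the summit, from 21 to 41, and the 34 others a median of 16.5, from 8 to 36. Over all WT peaks the medians were 27 with and 15 without a Tet2 KO peak. Some strong member peaks had no counterpart, such as the Id1 peak with 36 fragments 30.3 kb past the start and the Id3 peak with 33 fragments 2982 bp upstream. Since both lists skip numbers, it was asked whether a filtered Tet2 KO peak could lie there. For 11 of the 34 WT peaks without a Tet2 KO peak, the nearest Tet2 KO peaks on either side carried consecutive numbers, so that none had been removed between them, against 16.2% of all such WT peaks. These 11 included both strong peaks just named, the Id1 promoter and the WT peak 1037 bp upstream of it, both distal peaks of Id2 and both peaks of Twist2. The other 23 included the Tcf3 promoter and both Id4 peaks. For these 23, at least 1 number was skipped between the nearest Tet2 KO peaks on either side. Those Tet2 KO peaks can lie far off, and at Id4 they were 875050 and 232461 bp outside its window.

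Id1 and Id3, whose windows were dense in WT peaks, also had a high local background. MACS2 compares each summit with the local background of its neighbourhood, and for the 17 WT peaks of these genes this background was a median of 4.08 times the genome-wide one, from 1.57 to 5.67. For the 20 WT peaks of the E protein genes the median was 1.51, and over all WT peaks 1.60. A local background over 3 times the genome-wide one was found for 12 of the 17, among 14 of the 44 member peaks, and for 8.78% of all WT peaks. The 12 include peaks at E2f2, at 3.74, 4.08 and 4.30. Peaks close together share a neighbourhood, and the Id1 peaks 1037 and 132 bp upstream both had 5.35. The 17 values are therefore not independent, and a high background cannot be told apart here from the density of peaks. The local background exceeded the genome-wide one at all in 43 of 44 member peaks and in 91.6% of all WT peaks. A high background lowers the fold enrichment of a given number of fragments. The peaks of Id1 and Id3 had a median of 22 fragments at the summit, above the 16 of all WT peaks, but a median fold enrichment of 7.77, beside 7.89 for all. The other 2 member peaks above 3 times were the Id2 promoter, at 4.96, and the peak past the end of Tcf12, at 3.27.

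**Figure D3:**
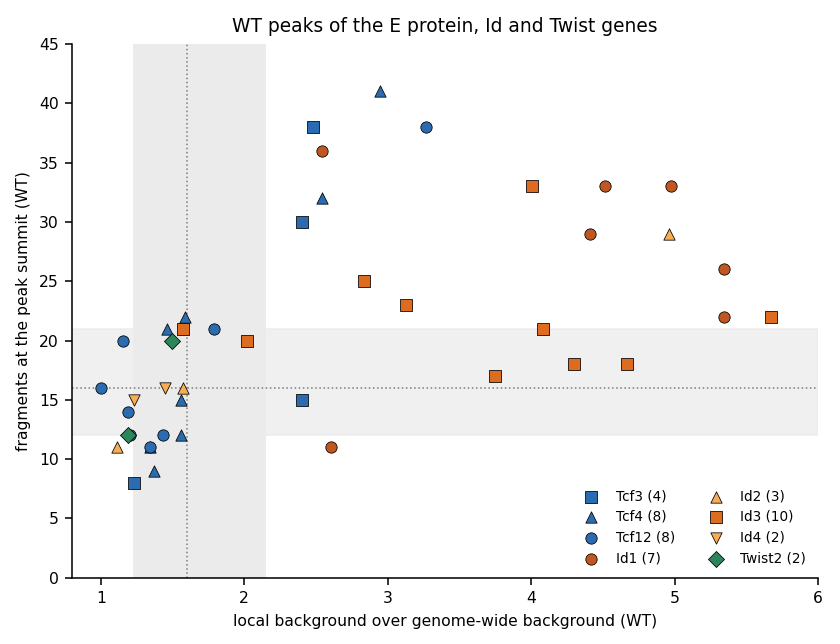
Fragments at the summit (y axis) against the local background relative to the genome-wide one (x axis) for the 44 WT peaks, by gene; dotted lines are the medians of all 25775 WT peaks and grey bands run from their 25th to their 75th percentile. Of the 14 peaks above 3 times the genome-wide background, 12 belong to Id1 and Id3, and the others are the Id2 promoter (4.96) and a peak of Tcf12 (3.27).

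In the 200 bp around the WT summits outside promoters, CAGCTG was found in 17 of 33 member windows, or 51.5% (95% Wilson interval 35.2% to 67.5%), and in 39.7% of all 17866 such WT windows, which is inside the interval. The E box in any form was found in 72.7% against 80.4%. Of the other forms, CAGGTG was found in 18.2% against 11.2% and CAGATG in 12.1% against 22.5%. The AP-1 motif was found in 16 of 33, or 48.5%, against 44.7%. The TEAD motif GGAATG (18.2% against 20.4%) and the RUNX motif TGTGGT (21.2% against 31.1%) were no more frequent than in all windows, and a MEF2 motif was found in 0 against 1.35%. Both strands were searched, and the same window may hold several motifs. At promoters CAGCTG was found in 0 of 10 member windows against 15.2% of all, and the CCAAT box in 6 of 10 against 42.9%. These counts cover the 200 bp around the summit. The Id2 promoter sequence shown above held 1 CAGCTG outside that stretch, inside both the WT and the Tet2 KO peak.

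**Figure D4:**
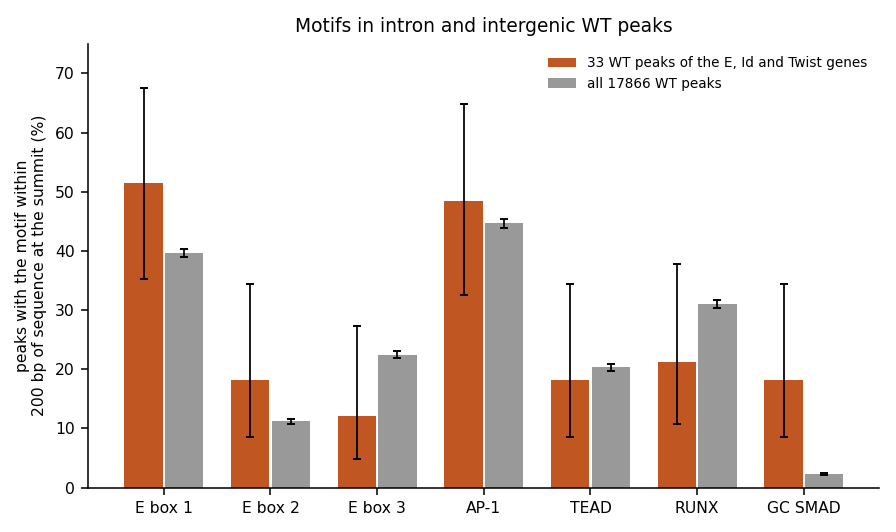
Share of WT peaks in introns or between genes with each motif in the 200 bp around the summit (y axis, %), for the 33 peaks of the E protein, Id and Twist genes (orange) and all 17866 (grey); bars are shares, error bars 95% Wilson intervals, and E box 1 is the CAGCTG form, E box 2 the form with CAGGTG, and E box 3 that with CAGATG. Among the motifs drawn, only for GGCGCC (GC SMAD, 18.2% against 2.26%) does the interval of the members leave out the value of all peaks.

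The SMAD site GGCGCC was more frequent at the members than in all WT peaks outside promoters. At promoters it was found in 2 of 10 member windows (95% Wilson interval 5.67% to 51.0%), and the 13.7% of all promoter windows was inside the interval. Outside promoters it was found in 6 of 33 member windows, or 18.2% (95% Wilson interval 8.61% to 34.4%), against 2.26% of all. Of the 6, 2 were at Id1, 2 at Id3, 1 at Id4 and 1 at Tcf3. A Tet2 KO peak was listed for 1 of them, the upstream peak of Id1 at 8.65-fold, beside 11% of all WT peaks outside promoters. GGCGCC contains a CpG, and the member windows outside promoters held more of these sites than all windows, with a median of 3 against 2 and a mean of 5.76 against 3.14, and had a median GC content of 55.5% against 50.5%. The 6 windows with GGCGCC held 1, 6, 13, 16, 19 and 22 CpG sites, beside a median of 14 in all promoter windows. The part of base composition in the GGCGCC count was not tested.

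The BMP response element in the form searched, GGCGCC followed after 5 bases by GTCT, was rare. It was found in 7 of the 17866 windows outside promoters (0.0392%), of which 2 were the Id3 windows shown above, 2982 bp upstream and 4561 bp past the start. It was also found in 5 of 7046 promoter windows, none of them at the members. The Id1 window 1037 bp upstream and the Id4 window 33.5 kb upstream held GGCGCC without GTCT at this spacing. Other forms of the element were not searched. The windows were searched after their peaks were known, and a match is a description of the sequence, not a measured binding site.

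The Id1 and Id4 windows shown above had in common a stretch of 20 bases that included TGACGTCA, the site of CREB and ATF proteins. Shorter stretches of 11 and 10 bases lay ahead of it in the same order, within 1 base of the same spacing, and the second included GGCGCC. Over the 525 pairs of windows at different members that were compared, which leave out Tcf4, the median longest shared stretch was 8 bases, and the next longest after this pair was 13. Of all 25775 WT windows the 20 bases were found in these 2. TGACGTCA itself was found in 0.537% of all windows outside promoters, and among the members in these 2 of 33. In promoter windows it was found in 2.78% of all and in 0 of 10 of the members, and the Id1 and Id4 windows, with 19 and 22 CpG sites, were nearer to the median of all promoter windows (14) than to that of all windows outside promoters (2). Both peaks were absent from the Tet2 KO list, with 0 skipped numbers around the Id1 peak and 3 around the Id4 peak. This comparison was made after the sequences had been read.

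The other genes of the MyoD network were counted in the same way. Of 21 other bHLH genes and MyoD regulators, 18 had a WT and 9 a Tet2 KO peak within 50 kb, with 65 and 17 peaks in all. A promoter peak was listed for 9 in WT and for 3 in Tet2 KO, which were Myod1 itself, Hes1 and Hes6. Of 18 genes of BMP signalling, among them receptors, SMAD genes and secreted inhibitors, 15 had a WT and 5 a Tet2 KO peak within 50 kb, with 54 and 5 peaks in all, and 6 had a WT promoter peak. A Tet2 KO promoter peak was listed for 0 of the 18. Beside the shares of all protein-coding genes given above (31.4% with a Tet2 KO peak within 50 kb and 7.92% with one at the promoter), counts of 5 and 0 of 18 do not set these genes apart.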

How the data were processed

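ATAC-seq reads of primary myoblasts were aligned by the authors to mm9 with Bowtie2, filtered for mapping quality and duplicates, and peaks were called with MACS2 in each sample. The deposited files hold 1 list of peaks for each genotype, from 1 library each, and were assigned to WT or Tet2 KO by their names and by totals equal to those the study draws. Each skips peak numbers, and how it was filtered is not given in the sources used here. In both, the authors deposited a MACS2 score, a fold enrichment (the ratio of summit to local background, with a pseudocount of 1) and the −log10 p-value and −log10 q-value of the summit. The smallest −log10 q was 2.18 in the WT list and 0.863 in the Tet2 KO list, where 55 peaks had a −log10 q under 2, the limit that the methods give, and none of these lay at the members. The authors' own differential peaks were not used here.

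Fragments at the summit and in the local background were solved from the fold and −log10 p with the Poisson formula of MACS2, to within 0.001 in −log10 p for every peak. For 55 WT and 1 Tet2 KO peaks a pair of solutions was found, none of them at the members. The most frequent background was taken as the genome-wide one, and total read numbers are not known. Genes, transcript starts and classes at the peak centre came from GENCODE M1, in the order promoter, exon, UTR, intron and intergenic, and sequences from NCBIM37, which is mm9, with pysam 0.24.0 and Python 3.11.15. Shares have 95% Wilson intervals (scipy 1.17.1), which cover counting error only. The solver was tested on simulated data. All 9 genes were named, with every Tet2 KO peak, every WT promoter peak, the peak outside promoters with the highest −log10 q at each gene and the 5 with the highest fold enrichment; the other peaks were named after their values were seen. The members and the gene lists were chosen with earlier results of these data known.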

Additional observations from a re-analysis of the deposited data

How the results depend on the processing

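No paired analysis was possible because the 2 lists carry no replicate numbers, and for the same reason no replicate could be left out. The number of WT peaks at the members was 27 with 10 kb in place of 50 kb on either side of the gene, and also 27 when −log10 q had to reach 10. With that limit 1 Tet2 KO peak was left, so at this depth the Tet2 KO counts rest on the limit chosen. The share of WT peaks with a Tet2 KO peak was 11.4% when the overlap had to cover at least 50% of each peak. Genes with a Tet2 KO peak at their own promoter were 1 with the starts of protein-coding transcripts alone, and 1 when −log10 q had to reach 5; in both cases Id3 was lost. The share of windows with CAGCTG was 30.3% within 100 bp of sequence at the summit, beside 26.2% of all windows outside promoters, as the shorter window holds fewer bases. All other counts and shares of the report that were recomputed stayed within 1.5 times the value given or within its interval. At single genes 25 of 126 recomputed counts moved by more than 1.5 times, 20 of them down. No alternative gave more Tet2 KO than WT peaks at a gene. A limit of 2 on −log10 q was added after seeing the data and left each of the counts as it was.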
